A study of Homo sapiens with 12 samples.

Results

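The 8 genes described here encode proteins that read methylation of lysine 9 on histone H3 (H3K9) or act beside those readers. They are CBX1, CBX3 and CBX5, which encode the heterochromatin proteins HP1β, HP1γ and HP1α; MPHOSPH8 and PPHLN1, which encode the MPP8 and periphilin subunits of the HUSH silencing complex; MORC2; CDYL; and SMCHD1. They were taken by name from the 18969 genes listed in each library, and all 8 were found and passed the filter on low counts.

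RNA was sequenced from HCT116 cells, a long-established line derived from a human colorectal carcinoma, in 3 groups of 4 libraries (12 in all). Libraries of the first group are labelled 0 h, and the labels do not say whether these cells were taken before the methionine-free culture or at its end. Cells of both recovery groups were kept for 24 h without methionine, either with UNC0642 or with its solvent DMSO, and were then returned for 24 h to methionine-containing medium that held no inhibitor. UNC0642 inhibits EHMT2 and EHMT1 (G9a and GLP), which place mono- and dimethyl marks on H3K9; its dose is not given in the sources used here. The libraries come from a single cell line. Nothing in the labels states that replicate libraries came from separate cultures; the p-values below therefore measure the spread among these libraries, and that spread may be technical. In such bulk samples, fewer cells of a type and less RNA per cell cannot be told apart.

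H3K9 methylation is written by EHMT1, EHMT2, SETDB1, SUV39H1 and SUV39H2 and is bound by chromodomain proteins. The HP1 proteins bind the mark through a chromodomain and pair through a chromoshadow domain, which recruits further silencing factors. In the HUSH complex MPP8 is the chromodomain subunit and TASOR and periphilin are its partners, and the complex works with the ATPase MORC2 and the methyltransferase SETDB1 to silence retroelements and some genes. CDYL is a chromodomain protein found with the REST corepressor and H3K9 methyltransferases. SMCHD1 is a noncanonical SMC protein that silences the inactive X chromosome and clustered genes and is linked to HP1 through LRIF1.

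The deposited expected counts summed to between 14658082 and 20179847 per library, and 12741 genes were tested. The deposited gene length minus effective length was 101 to 106 bases in 5 libraries and 120 to 127 bases in the other 7. Both classes of this length gap were present in every group. Of 10 epithelial markers, CDX1 had no count in any library and VIL1 and LGALS4 had at most 7 and 4 counts in a library, while EPCAM, KRT8, KRT18, KRT19, CDH1, CLDN4 and CDX2 were tested. A count of 0 allows up to 3 counts, or 0.149 to 0.205 CPM (counts scaled to library size) depending on the library, for counting error only. Marker sums were scaled to library totals only. The 10 markers summed to 4893 to 5000.4 CPM at 0 h, 5730.2 to 5852 CPM after DMSO recovery and 5771 to 5939 CPM after UNC0642 recovery. Relative to 0 h, 6 of the 7 tested ones were called higher after DMSO and after UNC0642 recovery, where 22.4% and 23.4% of all genes were. EPCAM was called lower in both, where 21.7% and 23.6% of all genes were. Summed markers of blood (8.37 to 12.2 CPM), fibroblasts (19.0 to 38.9 CPM) and endothelium (at most 0.964 CPM) were low in all groups and were carried by CD68 and COL1A1. Scarcer markers moved with the groups. Against 0 h, edgeR called 3 of 4 tested blood markers and 3 of 4 tested fibroblast markers lower after DMSO recovery (21.7% of all genes were). COL1A1 and VWF were called higher there (22.4% of all genes were). After UNC0642 recovery HBA1 and HBB were called lower (23.6% of all genes were) and CD68 and COL1A1 higher (23.4% of all genes were). HBA1, a globin gene, had 1.55 ± 0.191 CPM at 0 h, 0.588 ± 0.234 CPM in the DMSO group and 0.760 ± 0.262 CPM in the UNC0642 group (SD, n = 4 each), and COL1A2, a fibroblast collagen gene, had 2.80 ± 2.89, 0.475 ± 0.918 and 1.30 ± 1.55 CPM. These traces moved with the same contrasts as the changes against 0 h given below, and their part in those was not tested beyond fits without the 6 libraries with COL1A2 above 1 CPM.

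Levels were first compared on the deposited FPKM scale, which divides by transcript length and so allows genes to be set beside each other. HP1 genes formed both the top of the order and its middle. At 0 h, CBX3 was the most abundant, at 277 ± 3.36 FPKM (mean ± SD, n = 4), and CBX1 followed at 144 ± 2.44 FPKM. CBX5 stood at 18.8 ± 0.840 FPKM, below PPHLN1 at 36.1 ± 2.17 FPKM. The remaining genes lay close together, with SMCHD1 at 16.6 ± 0.184 FPKM, MPHOSPH8 at 13.8 ± 0.543 FPKM, CDYL at 13.6 ± 0.503 FPKM and MORC2 at 10.1 ± 0.428 FPKM. Among the genes tested, 97.9% had a lower mean FPKM than CBX3 at 0 h and 51.2% had a lower mean than MORC2. The order of the 8 means was the same in all 3 groups. Ranges of neighbours overlapped for MPHOSPH8 and CDYL at 0 h, and for SMCHD1 and MPHOSPH8 in both recovery groups. The order within these pairs was not tested. When ordered by CPM, which does not divide by length, CBX5 came next after CBX3 and CBX1, and SMCHD1 lay above PPHLN1.

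**Figure D1:**
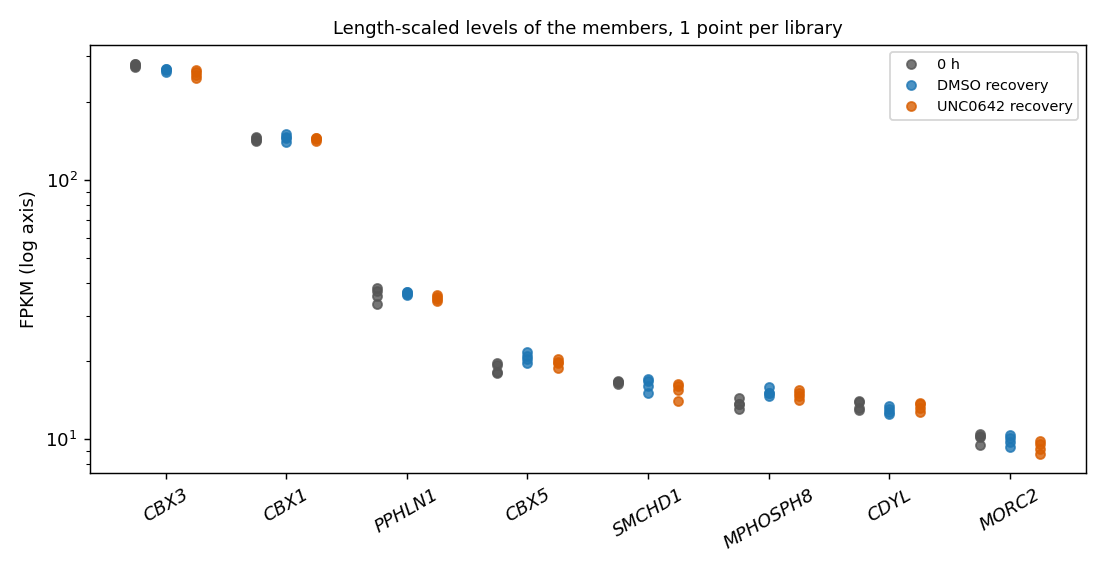
Deposited FPKM of the 8 genes on a log axis, 1 point per library, coloured by group, with genes ordered by their mean at 0 h. CBX3 and CBX1 stand apart from the other 6 genes, and the points of the 3 groups lie close together within each gene.

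As shares of the summed FPKM of the HP1 genes, CBX3 held 62.95% ± 0.513 at 0 h, 61.5% ± 0.708 in the DMSO group and 61.1% ± 0.943 in the UNC0642 group (SD, n = 4 each). CBX1 held 32.8% ± 0.405, 33.7% ± 0.784 and 34.2% ± 0.896. CBX5 held 4.27% ± 0.218, 4.78% ± 0.244 and 4.68% ± 0.166. The share of CBX5 after DMSO recovery (4.51% to 5.06%) lay above its share at 0 h (4.08% to 4.49%) in every library, and the share of CBX3 after UNC0642 recovery (59.9% to 62.1%) lay below that at 0 h (62.3% to 63.5%). These shares are a description, and no test was made of them. Reads from near-identical copies may enter them, since GENCODE 29 names 9 pseudogenes of CBX3, 5 of CBX1 and 1 each of CBX5 and CDYL.

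The proximal sequences of 4 of the genes with differences described below are shown, and CDYL, also called lower after DMSO recovery, is left out. Shown are those of CBX3, MORC2 and SMCHD1, lower after UNC0642 recovery than at 0 h, and CBX5, the HP1 gene higher after DMSO recovery. Each is the 250 bases before a RefSeq transcription start in GRCh38.p14 (for CBX5, the first of 3 listed starts), read 5′ to 3′ on the gene's strand, and capitals mark the motifs searched.
CBX3, chr7:26201193-26201442, plus strand: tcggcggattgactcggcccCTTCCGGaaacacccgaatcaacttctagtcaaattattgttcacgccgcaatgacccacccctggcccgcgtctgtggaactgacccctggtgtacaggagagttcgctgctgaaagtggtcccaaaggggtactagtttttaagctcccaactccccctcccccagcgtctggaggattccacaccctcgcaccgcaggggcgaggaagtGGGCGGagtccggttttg
CBX5, chr12:54280123-54280372, minus strand: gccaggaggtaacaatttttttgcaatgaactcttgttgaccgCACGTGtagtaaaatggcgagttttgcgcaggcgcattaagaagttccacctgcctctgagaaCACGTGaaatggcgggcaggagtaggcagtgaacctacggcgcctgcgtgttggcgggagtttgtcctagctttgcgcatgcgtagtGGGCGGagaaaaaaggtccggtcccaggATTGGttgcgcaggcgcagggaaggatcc
MORC2, chr22:30968775-30969024, minus strand: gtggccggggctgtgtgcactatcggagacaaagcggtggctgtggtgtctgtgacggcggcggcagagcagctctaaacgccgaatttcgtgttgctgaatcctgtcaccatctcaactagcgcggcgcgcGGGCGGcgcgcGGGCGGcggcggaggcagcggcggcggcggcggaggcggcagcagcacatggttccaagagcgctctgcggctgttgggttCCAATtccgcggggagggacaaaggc
SMCHD1, chr18:2655476-2655725, plus strand: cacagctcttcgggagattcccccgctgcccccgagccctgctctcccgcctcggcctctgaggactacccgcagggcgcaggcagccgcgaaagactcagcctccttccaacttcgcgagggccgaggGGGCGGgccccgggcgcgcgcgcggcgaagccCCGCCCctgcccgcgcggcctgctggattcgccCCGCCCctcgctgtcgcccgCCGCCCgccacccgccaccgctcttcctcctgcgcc

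The motifs were searched as exact letters on both strands: ETS (CCGGAAG), the CCAAT box (CCAAT), the E-box (CACGTG), CRE (TGACGTCA), the GC box (GGGCGG), the TATA box (TATAAA) and YY1 (AAGATGGCG). The CBX3 window held 1 ETS match and 1 GC box, and the CBX5 window held 2 E-boxes, 1 CCAAT box and 1 GC box. MORC2 had 2 GC boxes and 1 CCAAT box, and SMCHD1 had 4 GC boxes. Among 34943 RefSeq promoter windows of the same length, a GC box was present in 42.55%, a CCAAT box in 32.0%, an ETS match in 8.48% and an E-box in 6.32%. The 4 windows had no TATA box, which 10.8% of all windows held. They also had no exact NRF1, CRE or YY1 match, which 1.02%, 1.63% and 0.653% of all windows held. Near matches to these were not searched. CpG dinucleotides numbered 16 in CBX3, 17 in CBX5, 31 in MORC2 and 34 in SMCHD1, against a median of 11. The GC box was the only one of these motifs in all 4 windows. Among windows not shown, those of CBX1 and PPHLN1 held no GC box and that of MPHOSPH8 held 1. For CDYL, starts 1 and 3 held none and start 2 held 8. The windows of the other CBX5 starts, not shown, held 1 CCAAT box and no E-box or GC box, with 3 and 4 CpG. CBX1 lies on chromosome 17, CDYL on 6, MPHOSPH8 on 13 and PPHLN1 on 12.

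The comparison of UNC0642 recovery with DMSO recovery addresses whether earlier exposure to the inhibitor left a difference in these transcripts after 24 h without it. None of the 8 genes was called by edgeR's quasi-likelihood test at an adjusted p under 0.05, where 4.58% of all genes tested were called (2.06% higher and 2.53% lower). The adjusted p lay between 0.224 and 0.825. At an unadjusted p under 0.05, 2 of the 8 passed (CBX5 and SMCHD1), against 17.2% of all genes, and DESeq2, limma-voom and limma on log2(FPKM + 1) also called none. Log2 differences were below 0 for 7 of 8 genes and above 0 for CDYL, with a median of -0.04 against -0.001 over all genes. The largest was that of MORC2, at -0.09 ± 0.05 (SE), or 1.06-fold. Taken over all 8, the 95% intervals allowed at most a 1.14-fold lower or a 1.102-fold higher level. The unadjusted intervals of CBX5 (-0.14 to -0.007) and SMCHD1 (-0.16 to -0.003) did not include 0, and those of the other 6 genes did. The ranges of the groups overlapped for all 8 genes, where 10.5% of all genes had groups that did not overlap.

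**Figure D2:**
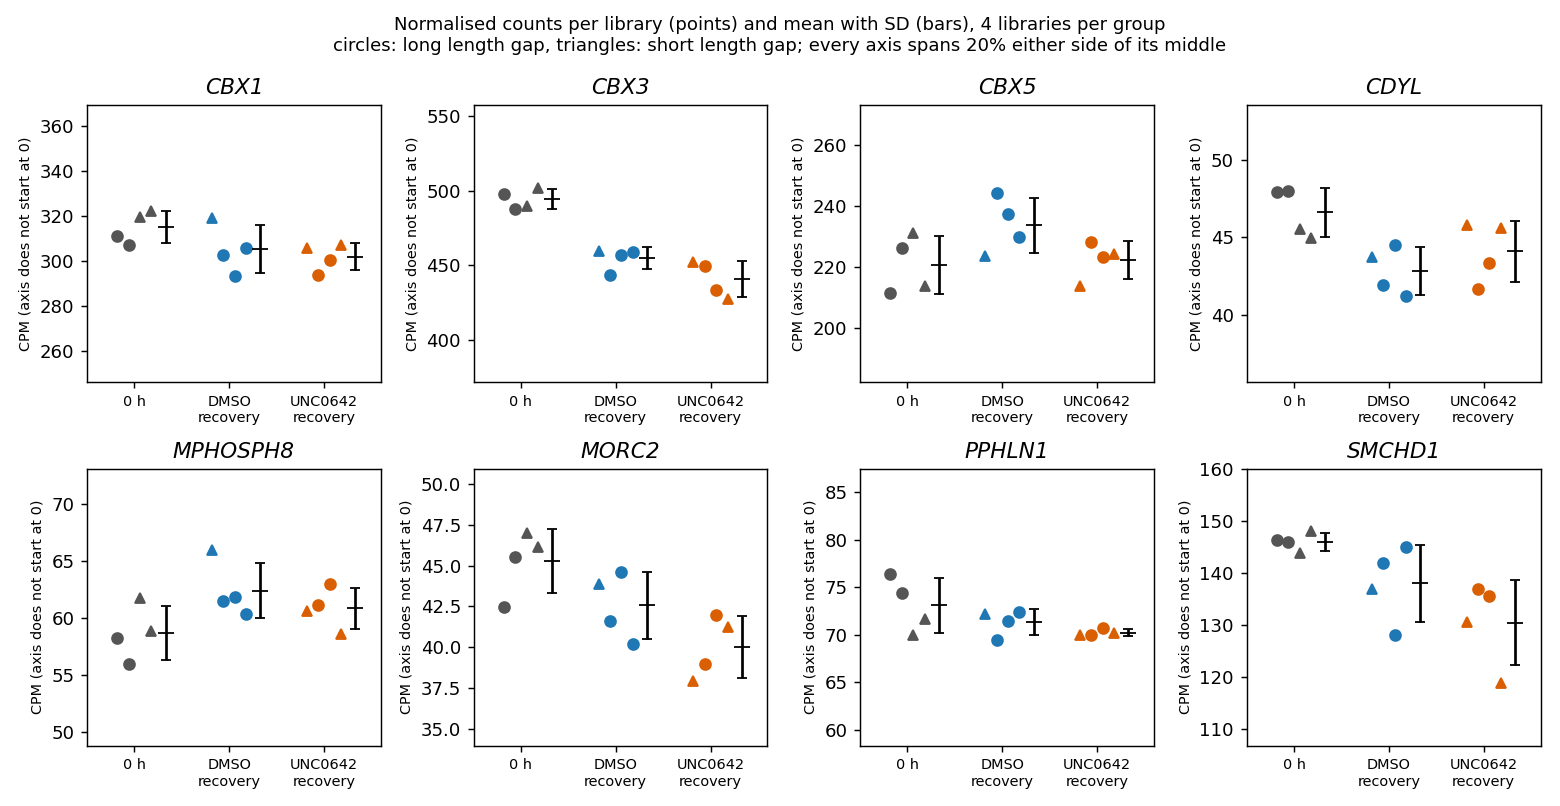
Normalised counts (CPM) of each gene by library, with the mean and SD of each group of 4; circles are libraries with the long length gap and triangles those with the short one. Axes do not start at 0, and each spans the same relative range; the CBX3 points of both recovery groups all lie below those at 0 h.

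Both recovery groups were next set against 0 h, which asks how the recovered cells differed from the 0 h libraries. Methionine-free culture, return to methionine, solvent or inhibitor, and time in culture cannot be told apart in these comparisons. These comparisons share the 0 h libraries, so their values are given side by side only. In DMSO recovery against 0 h, 3 of the 8 genes were called, where 44.1% of all genes were called: CBX3 and CDYL were lower (21.7% of all genes were) and CBX5 was higher (22.4% of all genes were). In UNC0642 recovery against 0 h, 3 of 8 were called, where 47.0% of all genes were: CBX3, MORC2 and SMCHD1 were lower (23.6% of all genes were) and none was higher (23.4% of all genes were). Both counts lie near or under the background share. The median log2 difference of the 8 genes against 0 h was -0.06 in the DMSO group and -0.07 in the UNC0642 group, and that of all genes was 0.01 in both. With library totals in place of TMM factors, the share of higher calls among all genes called rose from 50.8% to 67.5% after DMSO recovery and from 49.8% to 67.5% after UNC0642 recovery, and the members' medians became -0.01 in both. Under that scaling 2 members were higher (CBX5 and MPHOSPH8) and CBX3 lower after DMSO recovery, where 3825 of the 12741 genes tested were higher and 1838 lower. After UNC0642 recovery MPHOSPH8 was higher and CBX3 and SMCHD1 lower, where 4072 of the 12741 were higher and 1959 lower.

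**Figure D3:**
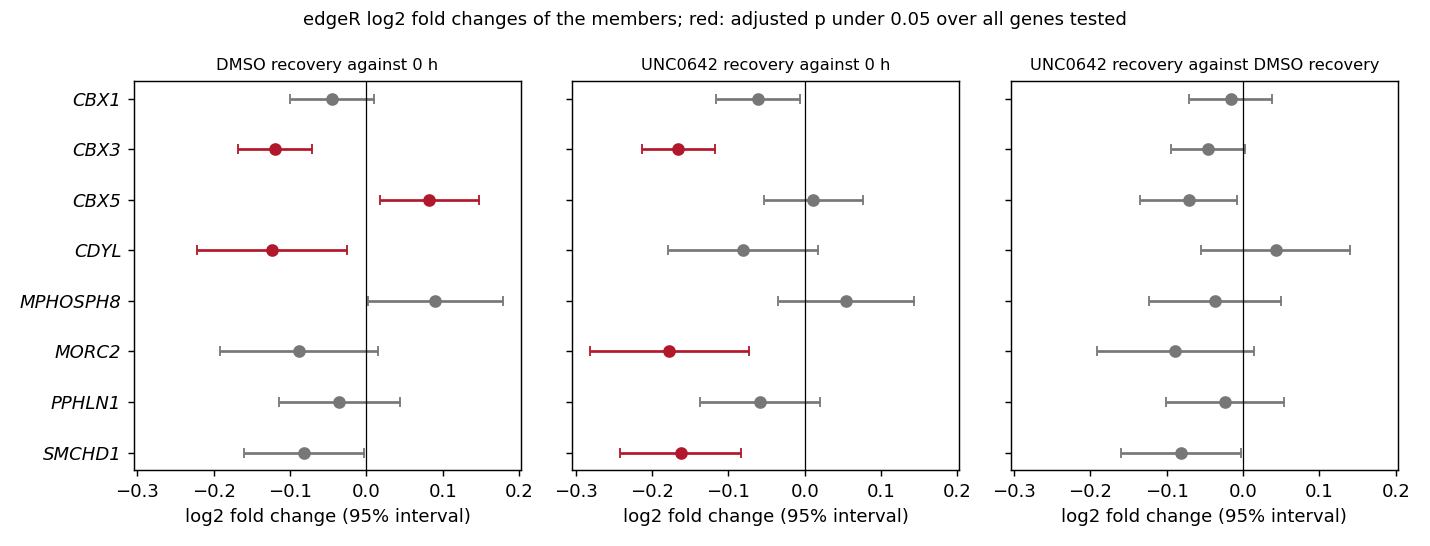
Log2 fold changes from edgeR with 95% intervals for the 8 genes in each comparison; red points have an adjusted p under 0.05 over all genes tested. CBX3 is red and below 0 against 0 h in both recovery groups, and no gene is red in UNC0642 recovery against DMSO recovery.

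CBX3 encodes HP1γ, the HP1 protein found in both heterochromatin and active genes. Its CPM were 497, 488, 489.8 and 502 in the 0 h libraries, 459.9, 444, 457 and 459 after DMSO recovery, and 452, 449.7, 433 and 427 after UNC0642 recovery. Every recovery library lay below every 0 h library, while the recovery groups overlapped each other. The log2 change was -0.12 ± 0.02 after DMSO recovery (edgeR adjusted p = 0.000114) and -0.17 ± 0.02 after UNC0642 recovery (adjusted p = 7.46e-07), falls of 1.09- and 1.12-fold. With library totals only these were -0.07 and -0.11. The fall after UNC0642 recovery was called under all 26 other settings. That after DMSO recovery was lost on log2(FPKM + 1) in limma (adjusted p = 0.0501) and within the 5 short-gap libraries (adjusted p = 0.0619), which hold 1 DMSO library.

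CBX1 encodes HP1β. Its CPM ranged from 307.3 to 322 at 0 h, from 293 to 319 after DMSO recovery and from 294 to 307.0 after UNC0642 recovery. The UNC0642 and 0 h ranges did not overlap, but by less than 1 CPM. Log2 differences from 0 h were -0.05 ± 0.03 and -0.06 ± 0.03, with adjusted p = 0.182 and 0.0617 in edgeR, so neither was called; the first was 0.01 with library totals only. The second was called under 4 of 26 other settings: with the length-gap class as a covariate (adjusted p = 0.0298), with the replicate block (0.0467), without 0 h replicate 2 (0.0408) and without UNC0642 replicate 4 (0.0471); with library totals only it was -0.002.

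CBX5, which encodes HP1α, the form concentrated in pericentric heterochromatin, was higher after DMSO recovery than at 0 h, where CBX3 was lower. It had 211, 226, 231 and 214 CPM at 0 h, 223, 244, 237 and 229.8 CPM after DMSO recovery, and 214, 228, 223 and 224 CPM after UNC0642 recovery. The ranges of all 3 groups overlapped. DMSO recovery was 0.08 ± 0.03 higher than 0 h on the log2 scale (1.06-fold, edgeR adjusted p = 0.0344), and UNC0642 recovery differed by 0.01 ± 0.03 (adjusted p = 0.798). The first call was weak: it was lost with DESeq2 (adjusted p = 0.0505), within the short-gap libraries, and when 0 h replicate 1 or 4 or DMSO replicate 2 or 3 was left out, where the adjusted p reached 0.152. Relative to the totals alone the rise was 0.14. Between the recovery groups the log2 difference was -0.07 ± 0.03 (adjusted p = 0.224).

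Of the HUSH genes, MPHOSPH8 (MPP8) had 58.2, 55.9, 61.7 and 58.8 CPM at 0 h, 65.9, 61.5, 61.8 and 60.4 CPM after DMSO recovery, and 60.6, 61.1, 63.005 and 58.6 CPM after UNC0642 recovery. Most recovery libraries lay in the upper part of the 0 h range or just above it. The log2 differences from 0 h, 0.09 ± 0.04 and 0.05 ± 0.04, were not called by edgeR with TMM factors (adjusted p = 0.0915 and 0.322). With library totals only they were 0.14 and 0.11 and both were called, at adjusted p = 0.00793 and 0.0326, as they were on log2(FPKM + 1) in limma (0.0138 and 0.0459). The first was also called without 0 h replicate 3 (0.0488). PPHLN1 (periphilin) had 69.95 to 76.4 CPM at 0 h, 69.4 to 72.4 CPM after DMSO recovery and 70.03 to 70.7 CPM after UNC0642 recovery. Its log2 differences from 0 h were -0.04 ± 0.04 and -0.06 ± 0.04 (edgeR adjusted p = 0.489 and 0.216), and both lost their sign with library totals only (0.02 and 0.0005). With effective lengths as offsets, the second was -0.10 and was called (adjusted p = 0.0355).

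MORC2, the ATPase that acts with HUSH, had 42.5, 45.5, 47.0 and 46.1 CPM at 0 h, 43.9, 41.6, 44.6 and 40.2 CPM after DMSO recovery, and 37.9, 39.0, 42.0 and 41.3 CPM after UNC0642 recovery. Every UNC0642 library lay below every 0 h library, and the DMSO libraries overlapped both. UNC0642 recovery was -0.18 ± 0.05 from 0 h on the log2 scale (1.13-fold lower, edgeR adjusted p = 0.00479), and DMSO recovery was -0.09 ± 0.05 (adjusted p = 0.162). The call was lost with library totals only (log2 -0.12, adjusted p = 0.0567), on log2(FPKM + 1) in limma (0.0786) and within the 7 long-gap libraries (adjusted p = 0.200). It held when any single library was left out.

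SMCHD1 was even at 0 h, at 146, 146, 144 and 148 CPM, and more spread afterwards, at 137, 142, 128 and 145 CPM after DMSO recovery and 131, 137, 136 and 119 CPM after UNC0642 recovery. All UNC0642 libraries were below all 0 h libraries. Its log2 change was -0.16 ± 0.04 after UNC0642 recovery (1.12-fold lower, edgeR adjusted p = 0.000816) and -0.08 ± 0.04 after DMSO recovery (adjusted p = 0.0868). The latter was called under 4 of 26 other settings: with the length-gap class as a covariate (0.0379), with only the 8 libraries compared (0.0446), without DMSO replicate 4 (0.0322) and without UNC0642 replicate 4 (0.0473); over the libraries left out it ranged from -0.11 to -0.05. The call after UNC0642 recovery held under library totals (log2 -0.10, adjusted p = 0.0326) and without any single library. It was lost on log2(FPKM + 1) in limma (0.106), within the long-gap libraries (0.0971) and without the 6 libraries with COL1A2 above 1 CPM (0.0813). For SMCHD1 and for MORC2, the direct contrast of the recovery groups was not called, so a difference between the recovery groups was not shown.

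CDYL had 47.9, 48.0, 45.5 and 44.9 CPM at 0 h, 43.7, 41.9, 44.5 and 41.2 CPM after DMSO recovery, and 45.8, 41.7, 43.3 and 45.6 CPM after UNC0642 recovery. All DMSO libraries were below all 0 h libraries, the closest pair being 44.5 and 44.9 CPM, while the UNC0642 libraries overlapped both. DMSO recovery was -0.12 ± 0.05 from 0 h (1.09-fold lower, edgeR adjusted p = 0.0376) and UNC0642 recovery was -0.08 ± 0.05 (adjusted p = 0.171), but -0.17 and called within the long-gap libraries (0.0445) and 0.01 within the short-gap ones. The call after DMSO recovery was lost with library totals only (log2 -0.07, adjusted p = 0.246) and under 8 of the other settings, including leaving out 0 h replicate 1 or 2 or DMSO replicate 2 or 4, with adjusted p up to 0.113 when a library was left out. Of the 8 genes, groups did not overlap for 2 in DMSO recovery against 0 h (38.3% of all genes) and for 4 in UNC0642 recovery against 0 h (40.2% of all genes).

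A further readout is the deposited gene length, which RSEM averages over a gene's transcripts by their estimated abundance, so that it moves with the transcript mixture. It could not vary for MPHOSPH8, MORC2 and SMCHD1, which have 1 transcript listed each. For CDYL, with 3 listed, it was the same in every library. It moved by a few bases for CBX1 and CBX3, and lay between 11540.5 and 11558.8 bases for CBX5. PPHLN1, with 8 transcripts listed, was the one with larger shifts. Its length was 2064, 2064, 2149.8 and 2053 bases at 0 h, 2079.8, 2084, 2116 and 2096 bases after DMSO recovery, and 2179, 2143, 2120.1 and 2143 bases after UNC0642 recovery. Every UNC0642 library had a longer mean length than every DMSO library, while 0 h replicate 3 lay among the UNC0642 values. The mean difference between UNC0642 and DMSO recovery was 52.4 bases (2.49%), with an exact two-sided permutation p = 0.0286, the smallest that 4 against 4 allows, and an adjusted p = 0.343 over 12 tests, so it did not pass the correction. Of 4632 genes with a varying length, 3.15% had groups that did not overlap in this comparison, and 6.52% and 6.39% in DMSO and UNC0642 recovery against 0 h, where no member's groups were apart. The difference was 32.96 bases among the long-gap libraries and 81.2 bases among the short-gap ones. Against 0 h, UNC0642 recovery was 63.7 bases longer (exact permutation p = 0.114, adjusted p = 0.457) and DMSO recovery 11.3 bases longer (exact permutation p = 0.714). CBX1, CBX3 and CBX5 had exact permutation p between 0.0857 and 1.0 in all comparisons.

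**Figure D4:**
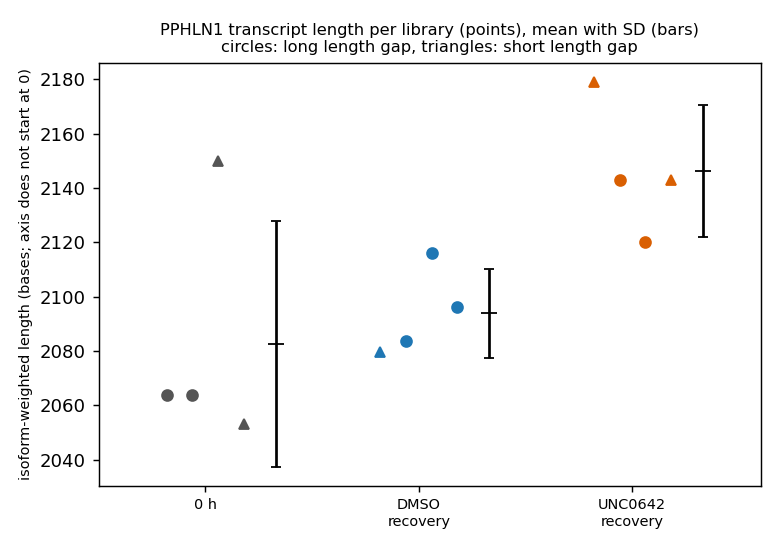
Length of PPHLN1 averaged over its transcripts, in bases, by library, with the mean and SD of each group of 4; the axis does not start at 0. UNC0642 libraries lie between 2120.1 and 2179 bases, above the DMSO libraries at 2079.8 to 2116 bases.

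Some of the genes share a start region with a gene on the opposite strand. In RefSeq, a start within 1 kb on the other strand was found for HNRNPA2B1 beside CBX3, HNRNPA1 beside CBX5 and ZCRB1 beside PPHLN1, and for TUG1 beside MORC2 and CBX3P2 beside SMCHD1, which were not analysed here. HNRNPA2B1 and HNRNPA1 encode abundant RNA-binding proteins of the hnRNP family. Both were lower after UNC0642 than after DMSO recovery. HNRNPA2B1 had 1697 ± 22.1 CPM after UNC0642 and 1819 ± 28.8 CPM after DMSO recovery (log2 -0.10 ± 0.02, edgeR adjusted p = 0.000461), where CBX3 was at -0.05 ± 0.02 (adjusted p = 0.322). HNRNPA1 had 1721 ± 21.0 and 1831 ± 47.0 CPM (log2 -0.09 ± 0.02, adjusted p = 0.00424), a call lost without the 6 libraries with COL1A2 above 1 CPM (adjusted p = 0.180). That the partner differed from its neighbour in response was not tested. Against 0 h after DMSO recovery, HNRNPA1 fell by 0.12 on the log2 scale where CBX5 was higher by 0.08. The estimates of this pair thus had opposite signs, but the CBX5 call was weak, as given above. HNRNPA2B1 fell by 0.13 beside CBX3 in that comparison. ZCRB1 was at -0.17 ± 0.05 between the recovery groups (adjusted p = 0.0664) and -0.12 ± 0.05 in DMSO recovery against 0 h (adjusted p = 0.0634). After UNC0642 recovery all 3 partners were lower than at 0 h. HNRNPA2B1 was at -0.23 ± 0.02 (edgeR adjusted p = 4.25e-12), HNRNPA1 at -0.21 ± 0.02 (1.05e-10) and ZCRB1 at -0.29 ± 0.05 (4.24e-05). Their neighbours CBX3, CBX5 and PPHLN1 were at -0.17, 0.01 and -0.06 there. CBX3 overlaps HNRNPA2B1, and PPHLN1 overlaps ZCRB1 and PRICKLE1, on opposite strands in GENCODE 29. Since the strand used in counting is not given in the sources used here, reads of such pairs may not be separated.

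Partner genes of the readers were then counted from 6 lists. Among HUSH, MORC and SMCHD1 partners, 6 of 7 were tested. None was called between the recovery groups, where 4.58% of all genes were (median log2 of the list -0.02). Against 0 h, 1 was lower after DMSO recovery and 4 after UNC0642 recovery, with none higher, where 21.7% and 23.6% of all genes were lower (medians -0.10 and -0.15, against 0.01 over all genes in both). After UNC0642 recovery these were LRIF1, listed as C1orf103, the SMCHD1 partner that binds HP1 (24.6 ± 1.15 against 29.2 ± 1.57 CPM, log2 -0.25 ± 0.06, edgeR adjusted p = 0.000818), MORC3 (-0.24 ± 0.06, adjusted p = 0.00140), TASOR2, listed as C10orf18 (-0.15 ± 0.04, adjusted p = 0.00182), and TASOR, listed as C3orf63, the central HUSH subunit (-0.14 ± 0.05, adjusted p = 0.0109). LRIF1 was also the one that was lower after DMSO recovery (-0.24 ± 0.06, adjusted p = 0.00110). With library totals only, TASOR and TASOR2 were not called (adjusted p = 0.143 and 0.0617), and TASOR was not called without UNC0642 replicate 4 (0.0609). Without the libraries with COL1A2 above 1 CPM, C1orf103, C10orf18 and C3orf63 were not called (adjusted p = 0.555, 0.215 and 0.309), and MORC3 was not called within the long-gap libraries (0.0866).

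The 10 H3K9 methyl writers and cofactors included 1 called between the recovery groups, where 4.58% of all genes were called. This was ATF7IP, the SETDB1 partner that protects it from degradation, which was lower after UNC0642 recovery, at 27.2 ± 0.847 against 32.3 ± 2.30 CPM (log2 -0.25 ± 0.06, edgeR adjusted p = 0.00785; adjusted p = 0.0561 on log2(FPKM + 1) in limma and 0.761 within the short-gap libraries). EHMT1, a target of UNC0642, was at -0.001 ± 0.04 in that contrast (adjusted p = 0.997). Against 0 h, 5 were lower and 1 higher in each recovery group, where 21.7% and 23.6% of all genes were lower and 22.4% and 23.4% higher, with medians of -0.12 and -0.13 against 0.01 over all genes. EHMT1 was among the lower ones in both (log2 -0.13 ± 0.04 each, edgeR adjusted p = 0.00543 and 0.00478), as it was under 22 of 26 other settings in each. EHMT2, the other target, was not called in either (adjusted p = 0.500 and 0.347). SETDB1 was also lower in both (-0.21 ± 0.05 and -0.28 ± 0.05, adjusted p = 0.00203 and 8.85e-05). TRIM28, the corepressor that brings SETDB1 and HP1 to zinc-finger protein targets, fell from 1354 ± 16.1 CPM at 0 h to 1239 ± 16.8 CPM after DMSO recovery (log2 -0.13 ± 0.02, adjusted p = 2.56e-06) and to 1236 ± 26.5 CPM after UNC0642 recovery (-0.13 ± 0.02, adjusted p = 1.44e-06). These falls were called under all 26 other settings and were -0.07 with library totals only.

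Of 15 HP1 partners, ADNP2 was the 1 called between the recovery groups, where 4.58% of all genes were called. ADNP2 had 92.5 ± 4.55 CPM after UNC0642 and 105 ± 1.52 CPM after DMSO recovery (log2 -0.19 ± 0.04, edgeR adjusted p = 0.000947). It was also lower than its 123 ± 4.00 CPM at 0 h in both groups (-0.22 ± 0.04 and -0.41 ± 0.04, adjusted p = 6.12e-06 and 4.11e-11). Its homologue ADNP, which forms a complex with HP1 and CHD4, was lower than at 0 h by -0.17 ± 0.03 and -0.20 ± 0.03 (adjusted p = 6.84e-05 and 4.83e-06). Against 0 h, 3 partners were higher and 5 lower after DMSO recovery, and 3 higher and 4 lower after UNC0642 recovery; over all genes 22.4% were higher and 21.7% lower in the first comparison and 23.4% and 23.6% in the second, so these counts lay near the background. KMT5B, listed as SUV420H1, a methyltransferase that HP1 brings to histone H4, was among the lower ones (-0.29 ± 0.05 and -0.23 ± 0.05, adjusted p = 2.55e-05 and 0.000291). Without the libraries with COL1A2 above 1 CPM, ADNP was not called (adjusted p = 0.148 and 0.0558), nor was SUV420H1 after UNC0642 recovery (0.0620), and within the short-gap libraries the difference of ADNP2 between the recovery groups was not called (0.462).

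Among the other readers of methylated lysines, 11 of 12 were tested. Between the recovery groups 2 were lower after UNC0642 and none higher, where 2.53% of all genes were lower and 2.06% higher. These were ATRX, the chromatin remodeller that binds H3K9 trimethylation (75.6 ± 5.28 against 86.1 ± 6.90 CPM, log2 -0.19 ± 0.05, edgeR adjusted p = 0.0166), and UHRF2 (28.8 ± 1.58 against 32.9 ± 0.621 CPM, -0.19 ± 0.06, adjusted p = 0.0443). ATRX was called under 20 of 26 other settings; it was not called without DMSO replicate 2 or 4 or UNC0642 replicate 4 (log2 -0.16 to -0.14, adjusted p = 0.0906 to 0.0953), on log2(FPKM + 1) in limma (0.189), without the libraries with COL1A2 above 1 CPM (0.112) or within the short-gap libraries (log2 -0.09, adjusted p = 0.791). UHRF2 was called under only 12 of 26 other settings and lost its call without 0 h replicate 3 or any single recovery library other than UNC0642 replicate 1. Against 0 h, 6 were higher and 1 lower after DMSO recovery, and 3 higher and 2 lower after UNC0642 recovery. Of all genes, 22.4% were higher and 21.7% lower in the first comparison and 23.4% and 23.6% in the second. ATRX and UHRF2 were among those higher after DMSO recovery (0.17 ± 0.05 and 0.16 ± 0.06, edgeR adjusted p = 0.00592 and 0.0239). These calls held under 24 and 23 of 26 other settings. After UNC0642 recovery neither was called against 0 h (-0.02 ± 0.05 and -0.03 ± 0.06, adjusted p = 0.761 and 0.698). The Polycomb chromodomain genes CBX7 (0.37 ± 0.07 and 0.38 ± 0.07, adjusted p = 2.53e-05 and 1.49e-05) and CBX6 (0.18 ± 0.03 and 0.20 ± 0.03, adjusted p = 1.70e-05 and 5.41e-06) were higher in both; the rise of CBX6 after DMSO recovery was not called within the short-gap libraries (0.124). The folds fitted for CBX7, 1.29 and 1.30, were larger than those of any of the 8 genes described here (at most 1.13).

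In the list of CDYL complex genes, none of 6 was called between the recovery groups, where 4.58% of all genes were. Against 0 h 1 was lower in the DMSO group and 2 were lower in the UNC0642 group, where 21.7% and 23.6% of all genes were. The deacetylase gene HDAC1 accounted for the first and was one of the second, with 315 ± 9.01 CPM at 0 h, 275 ± 6.98 CPM after DMSO recovery and 263 ± 5.72 CPM after UNC0642 recovery (log2 -0.19 ± 0.03 and -0.26 ± 0.03, edgeR adjusted p = 4.85e-07 and 1.05e-09). HDAC2 was the other, at -0.07 ± 0.03 (adjusted p = 0.0374), and was called under 15 of 26 other settings; it was not called without any one of 0 h replicates 2, 3 and 4 and UNC0642 replicates 3 and 4. The last list held the 16 clustered protocadherin beta genes, which SMCHD1 is known to silence. None passed the filter on low counts, and the most abundant, PCDHB14, had at most 12 counts in a library and 66 in all.

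**Figure D5:**
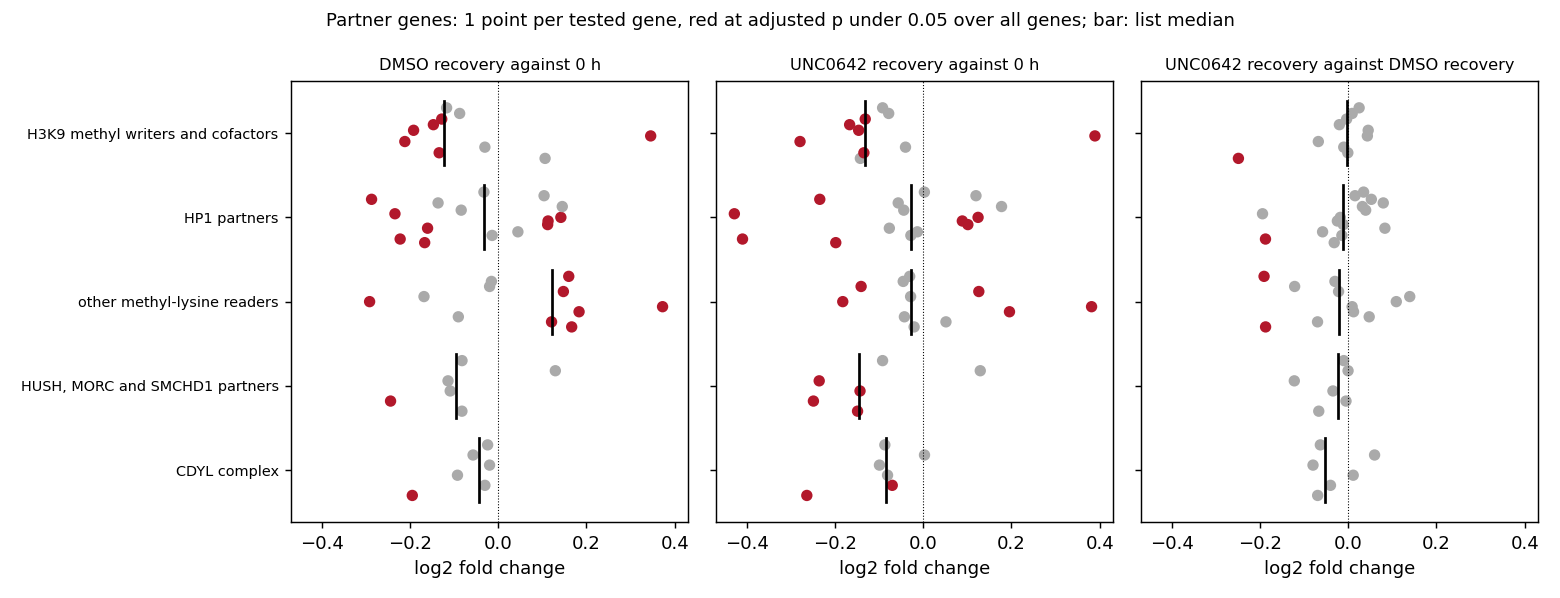
Log2 fold changes of the tested genes in 5 partner lists, 1 point per gene, red at an adjusted p under 0.05 over all genes; vertical bars are list medians. Red points are few in UNC0642 recovery against DMSO recovery and lie below 0 there.

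Across the 12 libraries, log2 CPM of the members were also compared with those of 9850 genes of sufficient level, as a description. The libraries share groups and depth, so a high correlation can come from the group means alone. CBX3 was closest to SUMO2 and HMGB1 (Pearson r = 0.98 for each), and CBX1 to RPL38 (0.92) and HSPE1 (0.91). CBX5 was closest to ARHGEF5 (0.91) and IFT140 (0.89), CDYL to PRMT6 (0.96) and WDR85 (0.93), and SMCHD1 to TTK (0.95) and WRN (0.94). MORC2 was closest to SNRPC and NONO (0.93 each), PPHLN1 to SNX17 (0.89) and AGBL5 (0.87), and MPHOSPH8 to IL18 (0.88) and LYPLAL1 (0.81). Among the 8 genes themselves, CBX3 and SMCHD1 had the highest correlation (0.75) and CDYL and MPHOSPH8 the lowest (-0.57).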

How the data were processed

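Per the submitters' processing notes, the authors used RSEM 1.2.4, Bowtie and the hg18 build for the 12 HCT116 libraries. The deposited files give expected counts, which need not be whole, and FPKM, with gene lengths in bases, per the file headers; deposited TPM values were not used. The strand used in counting is not given in the sources used here. Expected counts were rounded, filtered with filterByExpr and tested over all genes in 1 edgeR fit of the 12 libraries (version 4.0.16 under R 4.3.3, TMM factors and a mean per group), by quasi-likelihood. Tests are two-sided, with Benjamini-Hochberg adjustment over 12741 genes and calls at an adjusted p under 0.05. CPM uses TMM factors, except for the summed markers, the level that a count of 0 allows and the COL1A2 cutoff, which use library totals. Lengths were compared with exact permutation tests in scipy 1.17.1. No 2 libraries of a group agreed within sampling noise (chi-square over its degrees of freedom 2.04 to 3.56), so none was taken as a duplicate. Scripts were tested on simulated data.

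The members and lists were chosen with earlier results of these data known. Named partner genes are part of those chosen by a rule: up to 3 per list and comparison with the smallest p, start-region neighbours within 1 kb, and the 2 genes most correlated with each member (mean log2 CPM of at least 3). Alternatives were other scalings, filters, DESeq2 1.42.0, limma 3.58.1 (voom, and log2(FPKM + 1)), effective-length offsets, the replicate block, fewer libraries and the length-gap class. Fits within each length-gap class, and without 6 libraries with COL1A2 above 1 CPM, were added after seeing the data. Promoter windows are from RefSeq GRCh38.p14.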

Additional observations from a re-analysis of the deposited data

Results flagged for a closer look

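In each group of 4 libraries the highest and lowest value were checked for standing apart from the other 3 (a gap of over 0.829 of the range, Dixon's test at the 95% level). Of 120 groups checked 10 had such a library, where chance gives about 1 in 20, or 6. Among the 8 genes, CBX3 was at 443.5 CPM in DMSO replicate 2, below 457 to 459.9 CPM in the other DMSO libraries. The transcript-averaged length of CBX1 was 2234.9 bases in DMSO replicate 4, below 2237.0 to 2237.1 bases in the others. That of PPHLN1 was 2149.8 bases in 0 h replicate 3, above 2053 to 2064 bases. Of the partner genes, ATRX was at 74.0 CPM in 0 h replicate 2 (others 77.3 to 77.9), HDAC1 at 329 CPM in 0 h replicate 4 (others 309.6 to 313) and MIER1 at 52.4 CPM in the same library (others 47.6 to 48.2). After DMSO recovery, C3orf63 was at 59.9 CPM in replicate 3 (others 66.6 to 66.8), DAXX at 92.7 CPM in replicate 3 (others 86.7 to 87.5), MORC3 at 28.1 CPM in replicate 1 (others 30.9 to 31.3) and HNRNPA1 at 1901 CPM in replicate 1 (others 1804 to 1812).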

How the results depend on the processing

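None of the 8 genes was called between the recovery groups under any of 26 settings. Replicate numbers did not pair the libraries (correlations of same-numbered deviations from -0.10 to 0.04); with the replicate block 0, 3 and 4 members were called in UNC0642 against DMSO, DMSO against 0 h and UNC0642 against 0 h, with CBX1 added in the last, and 633, 5668 and 5998 genes. Genes called between the recovery groups numbered 292 within long-gap, 120 within short-gap libraries and 277 without the COL1A2 libraries, against 584. In DMSO recovery against 0 h they were 2526 within short-gap and 2987 without COL1A2 libraries, against 5617, and members called were 0 within short-gap libraries; in UNC0642 recovery against 0 h they were 3889 and 2836, against 5990. Fewer libraries entered these fits, and where 1 library was left in a group its spread was taken from the other groups. Leaving out 1 library gave 402 to 618, 5153 to 5703 and 5505 to 6015 genes, and 0, 1 to 4 and 3 to 4 members; 1 member stayed called in DMSO recovery against 0 h without 0 h replicate 1 or DMSO replicate 2.

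Among the 8 genes, signs changed only for differences not called in the reported fit, although MPHOSPH8, PPHLN1 and CDYL in UNC0642 recovery against 0 h were each called under another setting. Against 0 h after DMSO recovery, CBX1 was 0.0084 and PPHLN1 0.018 with library totals only, CBX1 was 0.014 and PPHLN1 0.018 on log2(FPKM + 1), and PPHLN1 was 0.028 within short-gap libraries. Against 0 h after UNC0642 recovery, PPHLN1 was 0.00049 with library totals only, and CBX5 was -0.023, CDYL 0.014 and MPHOSPH8 -0.016 within short-gap libraries; CBX5 was below 0 without 0 h replicate 1 or 4 or UNC0642 replicate 2 (-0.010 to 0.033 over the libraries left out). Between the recovery groups, CBX1 was above 0 without DMSO replicate 1 (-0.035 to 0.0047 over the libraries left out) and MPHOSPH8 0.022 within long-gap libraries. The PPHLN1 length in DMSO recovery minus 0 h was -21.6 bases within short-gap libraries. The causes were not tested.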
